A study of Rattus norvegicus with 20 samples.

Results

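The cytosolic ribosomal protein genes were followed in the gastrocnemius muscle of tumour-bearing rats. They were taken by symbol from the protein-coding rows of the count table. Symbols of the form Rpl or Rps with a number, with an optional paralog letter, were included together with Rplp0, Rplp1, Rplp2 and Rpsa, and the Rps6 kinases were left out. The rule used no measured value. It found 93 rows with 84 symbols among the 32495 named gene rows. A symbol found in more than 1 row is written with a row number (Rpl21 row 1), which applied to 7 symbols in 16 rows.

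All animals were female Fischer 344 rats that carried the Ward colorectal carcinoma, so every comparison is between tumour-bearing groups. TUMOUR STD (5 libraries) received the standard diet and no chemotherapy. CHEMO STD (7 libraries) received cycles of CPT-11 (irinotecan, a topoisomerase I inhibitor) and 5-FU (5-fluorouracil, an antimetabolite) on the standard diet. CHEMO FO (8 libraries) received the same chemotherapy, with a switch to a diet containing fish oil (EPA + DHA) on the day it began. No tumour-free group was analysed here, and the study's methods give the age of the rats without a unit. CHEMO STD 1 and 2 were far closer to each other than any other pair within a group, although not within counting noise (chi-square per gene 2.23 against at least 13.7, where counting noise alone gives about 1). They were counted as 1 sample, which left 19 samples, with n = 5, n = 6 and n = 8 in the order above.

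Cytosolic ribosomal proteins form the small subunit, which decodes the mRNA, and the large subunit, which joins the amino acids, and the P stalk of the large subunit recruits the translation factors that hydrolyse GTP. Their mRNAs are among the most abundant of a cell and are known as TOP mRNAs, because they begin with a C followed by a run of pyrimidines (a terminal oligopyrimidine tract) through which mTORC1 and the protein LARP1 control their translation. Skeletal muscle also expresses Rpl3l, a striated muscle paralog that takes the place of Rpl3 in part of the ribosomes. Ribosome supply is a known determinant of the capacity of muscle to make protein. RNA counts measure the mRNAs only, not ribosomes or translation.

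The tract was looked for around each annotated transcription start. Of the 84 symbols, 63 matched 1 promoter each in the RefSeq table (build GRCr8, whereas the counts are on Rnor 6). A window from 20 bases before to 10 bases after the start was read on the sense strand, which has the sequence of the mRNA. It was searched for a run of at least 6 pyrimidines that begins with C. Such a run was in 46 of the 57 windows of members that are not paralogs (80.7%), in 1 of the 6 windows of paralogs (16.7%) and in 5337 of the 24206 windows of all genes with a unique symbol (22%). The windows below are those of some members named further down that hold a run, followed by the paralogs Rpl3l, Rpl22l1 and Rps27l, which hold none. They do not show how often the leading members or the paralogs hold a run. Capitals mark the run, and windows without capitals hold none.
Rpl5 (chr14:1995216-1995245, minus strand): cagccaCTCTCTTTCCCacgtcgcttgcgt
Rps24 (chr16:96497-96526, plus strand): ggcagtgagcggtCCTCTTTTCCTCCTTTa
Rpl4 (chr8:73566457-73566486, plus strand): agtgataagttCTTCCTTTTCCTgtgggag
Rps23 (chr2:23814497-23814526, plus strand): ccttgtgggtCCTTCCTgCCTCTCTTCTCT
Rps3 (chr1:163195767-163195796, minus strand): ttCCTTTCCTTTCagcggcgcgcggcagca
Rpl3l (chr10:14258426-14258455, plus strand): catttgacctctggtgcctggtggggaggt
Rpl22l1 (chr2:113683176-113683205, plus strand): tgagcgctccgtggatatccggttccgagt
Rps27l (chr8:76443638-76443667, plus strand): ttatagtttattcatttgtcattatttgtg
Windows of other members hold no such run either, among them Rpl3 and the members Rpl6, Rpl11 and Rps4x, which are among those with the smallest p below. The 1 paralog window with a run is that of Rps4y2. A match is a description of these letters around an annotated start, not a measured 5′ end.

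The libraries were checked before the members were compared. Counts on named genes ranged from 5422118 to 10857477 in TUMOUR STD, from 3020821 to 10516783 in CHEMO STD and from 3035841 to 9119394 in CHEMO FO. Markers of fast muscle, with Myh4 the most abundant, were present in every library, as the tissue label requires. TUMOUR STD 10 held a keratinocyte marker sum of 479.5 CPM (a gene's counts relative to the TMM-scaled library size) and CHEMO FO 16 one of 106 CPM, against 2.45 to 8.07 CPM in the other samples. CHEMO STD 7 held B cell markers at 60.8 CPM and T cell markers at 24.2 CPM, against at most 3.89 and 3.52 CPM elsewhere. CHEMO FO 18 had the lowest fast muscle sum, 128385 CPM against 181131 to 261308 CPM in the other samples. In bulk muscle, fewer cells of a type and less RNA per cell cannot be told apart.

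Not every member could be measured. After edgeR's default filter on low counts, 78 of the 93 rows were tested among 11716 genes. The 15 rows left out comprise 4 with no count in any library (Rpl8, Rpl7a row 1, Rpl7a row 2 and Rpl30l1) and 11 with at most 15 counts in any library (Rplp2, Rpl9, Rps29, Rpl38, Rpl35a, Rpl21 row 2, Rpl21 row 4, Rpl32 row 2, Rps19l2 row 2, Rpl39l and Rpl10l). Rps6, the S6 kinase substrate, passed the filter with a mean of 2.59 CPM. Rpl8, Rpl7a, Rplp2, Rpl9, Rps29, Rpl38 and Rpl35a are known ribosomal proteins, so their low counts are not taken here as the level of these genes. How reads were assigned to those rows was not tested. Many ribosomal protein genes have near-identical copies, and how the counting treated reads with more than 1 match is not stated in the sources at hand, and the values of members with such copies are uncertain. Rpl22, Rps14, Rps19 and Rps26 were not analysed here.

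The members together took between 1.23% and 2.25% of a library's counts. In TUMOUR STD the share was 1.61%, 1.43%, 1.23%, 1.62% and 1.59% in replicates 8 to 12. In CHEMO STD the lowest share was 1.57%, the median 1.74% and the highest 1.85%. In CHEMO FO the lowest share was 1.48% and the highest 2.25%, the latter in CHEMO FO 18. The groups overlap, with TUMOUR STD 10 below and CHEMO FO 18 above all other libraries. The counts behind these shares were at least 45294 per sample, so counting error is small beside the spread between samples.

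**Figure D1:**
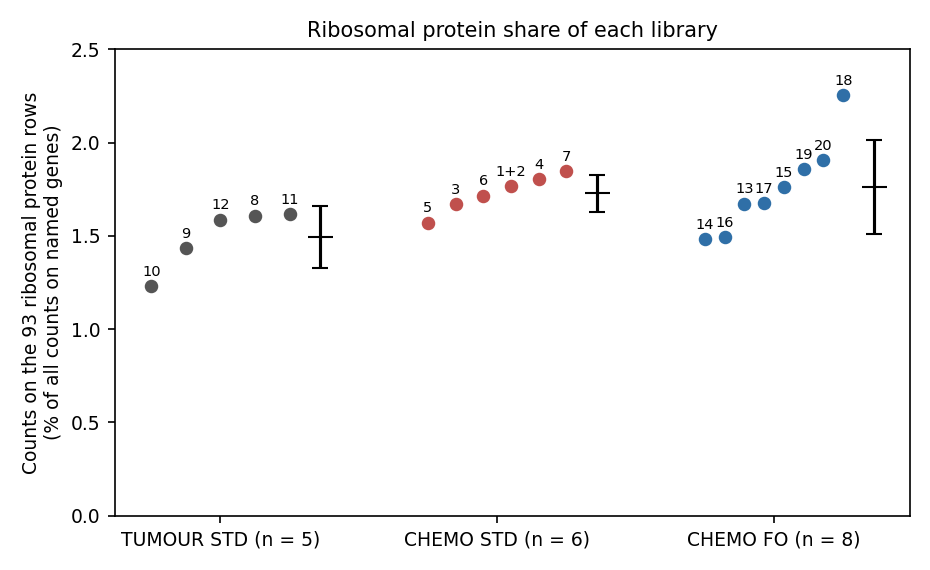
Share of counts on named genes that fell on the 93 ribosomal protein rows, in percent, for each library. Points are libraries with their replicate numbers and bars are the mean ± SD of each group. The TUMOUR STD libraries lie between 1.23% and 1.62%, and CHEMO FO 18 lies highest at 2.25%.

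The chemotherapy effect was read from CHEMO STD versus TUMOUR STD. Ribosomal protein mRNAs were mostly higher after chemotherapy on the standard diet, by small amounts: 73 of the 78 tested members had a higher fitted level and 5 a lower one, Rpl28 and Rps16 among them. Their median log2 fold change was 0.21, a 1.16-fold difference, where the median over all 11716 genes was -0.00. In edgeR's quasi-likelihood test, 20 members passed an unadjusted p of 0.05, all of them higher (25.6% of the members), beside a background of 2.67% of all genes tested that passed in this direction. No member passed the study's joint threshold of p and 1.5-fold (2.38% of all genes did), and none passed an adjusted p of 0.05 in edgeR (lowest adjusted p = 0.719), DESeq2 or limma voom. The result leans on TUMOUR STD 10, the library with the highest keratinocyte marker sum. Without it the members' median was 0.13 and 3 members passed (3.85%, beside 1.23% of all genes). The part of those markers in this was not tested. Leaving out CHEMO STD 3, 4, 6 or 7 gave 8, 10, 9 and 12 called members, and leaving out TUMOUR STD 9 gave 12, beside 1.63% to 2.34% of all genes in these fits. Without both TUMOUR STD 10 and CHEMO FO 18, 7 members passed (8.97%, beside 2.13% of all genes).

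The called members came from both subunits. Of the large subunit rows, 12 of 41 passed, all higher (29.3%, beside 2.67% of all genes), and the list's median was 0.19 on the log2 scale. Rpl21 row 1 and Rpl21 row 3 both count here. Of the small subunit rows, 8 of 35 passed, all higher (22.9%), with a median of 0.24. Neither of the 2 measured P stalk genes passed. Rplp0, the stalk base often used as a reference gene, differed by 0.01 on the log2 scale (SE 0.15), and Rplp1 by 0.13 (SE 0.13). Rpsa, a small subunit protein also known as a laminin receptor precursor, differed by 0.07 (SE 0.12).

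Rps23, a protein of the decoding centre, had the smallest p among the members. It was at 194, 187, 134, 197 and 159.9 CPM in TUMOUR STD 8 to 12. In CHEMO STD its lowest value was 195, its median 233 and its highest 258 CPM. Only TUMOUR STD 11 lies above the lowest CHEMO STD sample. The log2 fold change was 0.39 (SE 0.13, unadjusted p = 0.00607).

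Rpl7, a large subunit protein, was at 402, 360.1, 288, 424 and 378 CPM in TUMOUR STD 8 to 12, and between 427 and 497 CPM in CHEMO STD with a median of 465 CPM. Every CHEMO STD sample was above every TUMOUR STD sample. The log2 fold change was 0.33 (SE 0.11, unadjusted p = 0.00762). Rps15a, a small subunit protein, likewise separated the groups, with 150.1, 121, 110.2, 149 and 142 CPM in TUMOUR STD and 154 to 181 CPM in CHEMO STD (median 167). Its log2 fold change was 0.32 (SE 0.12, unadjusted p = 0.0178), and 0.25 without TUMOUR STD 10 (unadjusted p = 0.0608). These were the only 2 members whose groups did not overlap (2.56% of the tested members), beside a background of 0.179% of all genes tested in this direction.

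Rpl5 and Rpl11 form with 5S rRNA the particle that can bind MDM2 and so stabilise p53 when ribosome assembly is disturbed. Rpl11 was at 206, 184, 153, 219 and 204 CPM in TUMOUR STD and between 206 and 263 CPM in CHEMO STD (median 235). The groups overlap in 1 TUMOUR STD library, and the log2 fold change was 0.28 (SE 0.12, unadjusted p = 0.0237). It no longer passed without TUMOUR STD 10 (0.21, unadjusted p = 0.0881) or without CHEMO STD 3 (0.25, unadjusted p = 0.0592). Rpl5 had a wider range, at 427, 343, 169.7, 436 and 215 CPM in TUMOUR STD and between 313 and 546 CPM in CHEMO STD (median 495). Its log2 fold change of 0.56 (SE 0.24, unadjusted p = 0.0293) was the largest among the 20 called members. It passed under 24 of 31 alternative settings and lost the call without TUMOUR STD 10 (0.39, unadjusted p = 0.102) and without TUMOUR STD 12 (0.44, unadjusted p = 0.0939), and also without CHEMO STD 3, 4 or 6 (unadjusted p = 0.0530, 0.0572 and 0.0514). Over the MDM2-binding ribosomal proteins, all 10 tested rows were higher, with Rps27a entering as row 1 and row 2, and the median was 0.26 on the log2 scale. Of all members, 73 of 78 were higher. In the MDM2-binding list 3 passed (Rpl5, Rpl11 and Rps3), or 30%, beside 25.6% of all members and 2.67% of all genes. Rps3 (0.26) did not pass without TUMOUR STD 8, 9 or 10 or CHEMO STD 4, 6 or 7 (0.22 to 0.27). Diamond-Blackfan anaemia is an inherited failure of red cell production caused by ribosomal protein loss. Of the 15 tested rows of genes known from it, Rps10 row 1 and row 2 included, 13 were higher, with a median of 0.13. Here 4 passed (26.7%), all higher, again beside 25.6% of all members and 2.67% of all genes.

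The values of the leading members per library show how far the groups overlap.

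**Figure D2:**
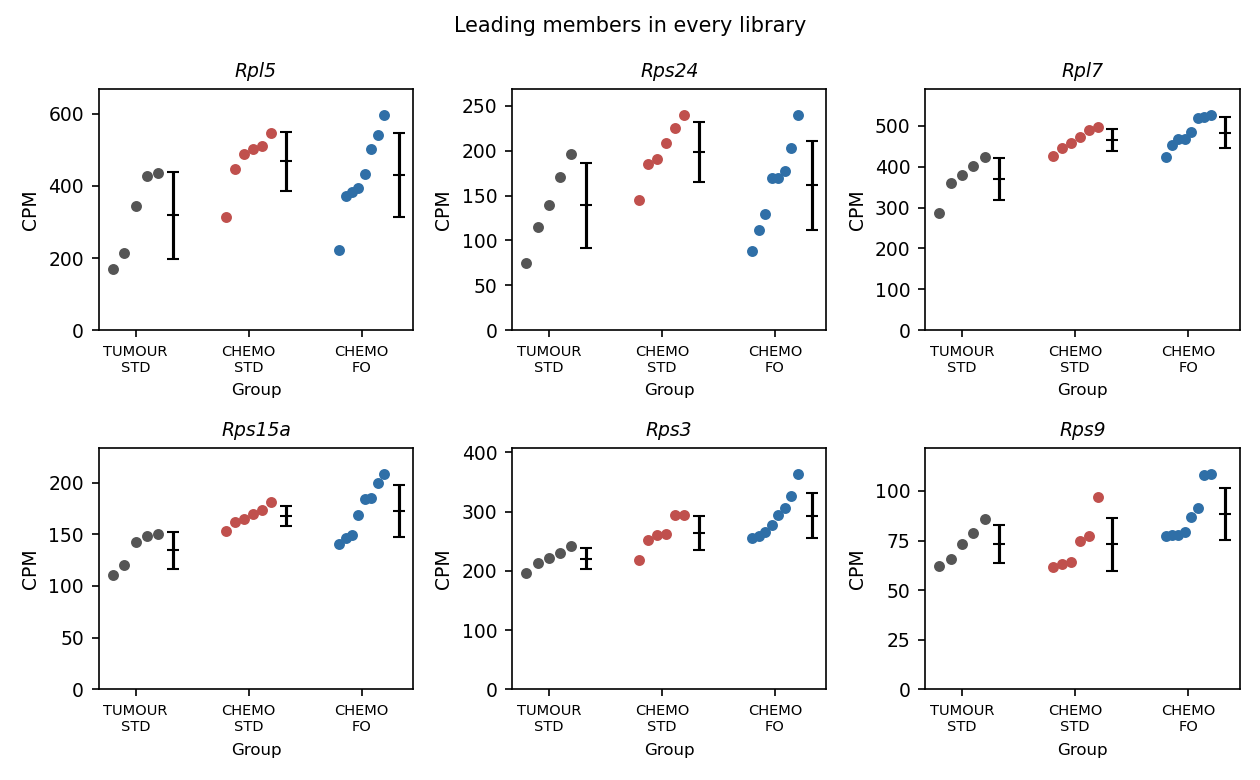
Expression of Rpl5, Rps24, Rpl7, Rps15a, Rps3 and Rps9 in CPM on TMM-scaled library sizes, by group. Points are samples and bars are the mean ± SD (n = 5, 6 and 8). Rpl7 and Rps15a do not overlap between TUMOUR STD and CHEMO STD, while Rpl5 and Rps24 range widely within each group.

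The diet effect was read from CHEMO FO versus CHEMO STD. With fish oil the ribosomal protein genes differed little in fitted level: 51 of the 78 members had a higher fitted level, with a median log2 fold change of 0.06 (-0.01 over all genes). In edgeR's test 2 members passed an unadjusted p of 0.05, both higher (2.56%), beside a background of 2.45% of all genes in this direction. None passed the joint threshold (1.66% of all genes did), and none an adjusted p of 0.05 in edgeR (lowest adjusted p = 0.974), DESeq2 or limma voom. The count depended on the test: limma voom gave 10 members higher (12.8%, beside 5.81% of all genes) and 1 lower, and edgeR without CHEMO STD 1 and 2 gave 5 higher (6.41%, beside 4.03% of all genes). The members called in edgeR with all samples were Rps9 and Rpl28.

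Rps9, a small subunit protein needed for accurate decoding, was between 61.9 and 97.1 CPM in CHEMO STD (median 69.6) and between 77.4 and 109 CPM in CHEMO FO (median 83.1). Its log2 fold change was 0.27 (SE 0.13, unadjusted p = 0.0423). Rpl28, a large subunit protein, was between 84.9 and 125 CPM in CHEMO STD (median 103) and between 108 and 164 CPM in CHEMO FO (median 120.4), with a log2 fold change of 0.25 (SE 0.12, unadjusted p = 0.0495). Both groups overlap for both genes. Rps9 passed under 19 of 31 alternative settings and Rpl28 under 15. Rps9 lost the call without CHEMO FO 20 (unadjusted p = 0.0888) and Rpl28 without CHEMO FO 19 (unadjusted p = 0.123), and each also lost it without CHEMO STD 3 or CHEMO STD 5.

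None of the 20 members called for the chemotherapy effect passed edgeR's test of the diet. Both comparisons use the same CHEMO STD samples, and these members were picked as higher there. That choice tends to pull their diet values down, so these values are no separate measure of the diet. Rpl5 differed between CHEMO FO and CHEMO STD by -0.12 on the log2 scale (SE 0.21) and Rps24, named after its values were seen, by -0.30 (SE 0.21, unadjusted p = 0.162). Rps23, with the smallest p for the chemotherapy effect, differed by -0.10 (SE 0.11). Rpl7 differed by 0.06 (SE 0.10), Rps15a by 0.04 (SE 0.11) and Rps3 by 0.15 (SE 0.10).

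The remaining pair, CHEMO FO versus TUMOUR STD, differs in both chemotherapy and diet and shares its samples with the other comparisons. Here 76 of the 78 members were higher, with a median log2 fold change of 0.24 (all genes 0.00), and only Rps16 and Rps4y2 were lower. In edgeR's test 24 members passed an unadjusted p of 0.05, all higher (30.8%), beside a background of 3.72% of all genes in this direction. None passed the joint threshold (3.6% of all genes did), and none an adjusted p of 0.05 in edgeR (lowest adjusted p = 0.486) or limma voom, while in DESeq2 1 member, Rpl7, passed it (adjusted p = 0.0490). Without TUMOUR STD 10, 11 members passed (14.1%, beside 2.47% of all genes), and without CHEMO FO 16, 40 passed (51.3%, beside 5.14%). All 41 large subunit rows were higher, and 16 of them passed (39.0%, beside 3.72% of all genes).

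Rps3, a small subunit protein at the mRNA entry site that also acts in DNA repair, led this pair. It was at 222, 196, 213, 230.4 and 242 CPM in TUMOUR STD 8 to 12 and between 256 and 364 CPM in CHEMO FO (median 286). No CHEMO FO sample reached down to the TUMOUR STD range, and the log2 fold change was 0.41 (SE 0.11, unadjusted p = 0.00129). Rpl7 also separated the groups by a small margin, with a CHEMO FO range from 424 to 527 CPM (median 477) and a log2 fold change of 0.38 (SE 0.11, unadjusted p = 0.00147). These 2 members (2.56%) stand beside a background of 0.154% of all genes whose CHEMO FO samples all lay above TUMOUR STD. Rpl6 (0.38, SE 0.11), Rps4x row 1 (0.35, SE 0.11) and Rpl17 (0.40, SE 0.13) had the next smallest p. Rpl17 ranged from 71.7 to 114 CPM in CHEMO FO (median 101) against 79.4, 70.3, 52.8, 87.8 and 76.6 CPM in TUMOUR STD, so its groups overlap.

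Some calls did not depend on any single choice. Of the 10 named members called in CHEMO STD versus TUMOUR STD, Rpl7 and Rps23 passed the unadjusted threshold under each of the 31 alternative settings, each library left out in turn included. Of the 13 named members called in CHEMO FO versus TUMOUR STD, 7 did (Rpl6, Rpl7, Rpl11, Rpl17, Rps3, Rps4x row 1 and Rps15a). Neither of the members called in CHEMO FO versus CHEMO STD did. Because both chemotherapy groups were set against the same TUMOUR STD samples, the 10 members called in both are not independent calls.

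The members did not all vary alike. The coefficient of variation within groups had a median of 14.3% over the 78 members, beside 24.3% over all genes tested, and ran from 7.15% (Rpl19) to 47.7% (Rps4x row 2, at 1.66 CPM on average). Below Rps4x row 2 came Rps4y2, Rps6 and Rps10l1, all with a mean of at most 6.35 CPM, and then Rps16, Rpl3, Rpl22l1, Rps24 and Rpl5, named here after their values were seen. In TUMOUR STD 10, 33 members lay more than 0.5 log2 units below their own median over libraries, while none lay that far above. Rpl5 was 1.35 below its median there, Rpl4 1.26 below, Rps24 1.19 below and Rpl30 1.04 below, whereas Rplp0 was 0.06 above. CHEMO FO 16 showed 13 members that far below and 4 that far above, with Rpl5 and Rpl30 each at -0.96 and Rps24 at -0.94, and Rplp0 at 0.22. TUMOUR STD 12 showed 6, with Rpl5 at -1.02 and Rplp0 at 0.36.

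Those libraries also stood out in the markers of other cell types. The fibroblast marker sum was 12620 CPM in TUMOUR STD 10, 13315 CPM in TUMOUR STD 12, 11147 CPM in CHEMO STD 1 and 2, and 7031 CPM in CHEMO FO 16, and between 1688 and 6168 CPM in the other 15 samples. The same 4 samples held the lowest Rpl5 values, 169.7, 215, 313 and 223 CPM, against at least 343 CPM in the others. Of all 11716 genes tested against TUMOUR STD, 449 passed as lower in CHEMO STD and 623 in CHEMO FO. All 5 tested fibroblast markers had a lower fitted level than in TUMOUR STD in CHEMO STD (median -0.32 on the log2 scale, 1 of 5 passing). The same held in CHEMO FO (median -0.45, 2 of 5 passing). All 7 slow muscle markers likewise had a lower fitted level in CHEMO STD (median -0.51, 3 of 7 passing) and in CHEMO FO (median -0.28, 2 of 7 passing). Their sum was between 7524 and 15636 CPM in TUMOUR STD, between 6081 and 9993 CPM in CHEMO STD and between 5168 and 14662 CPM in CHEMO FO, so the groups overlap. The part of the fibroblast and slow muscle markers in the ribosomal protein differences was not tested. In TUMOUR STD 9, with a fibroblast sum of 5178 CPM, 76 of the 78 members were at or below their median.

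**Figure D3:**
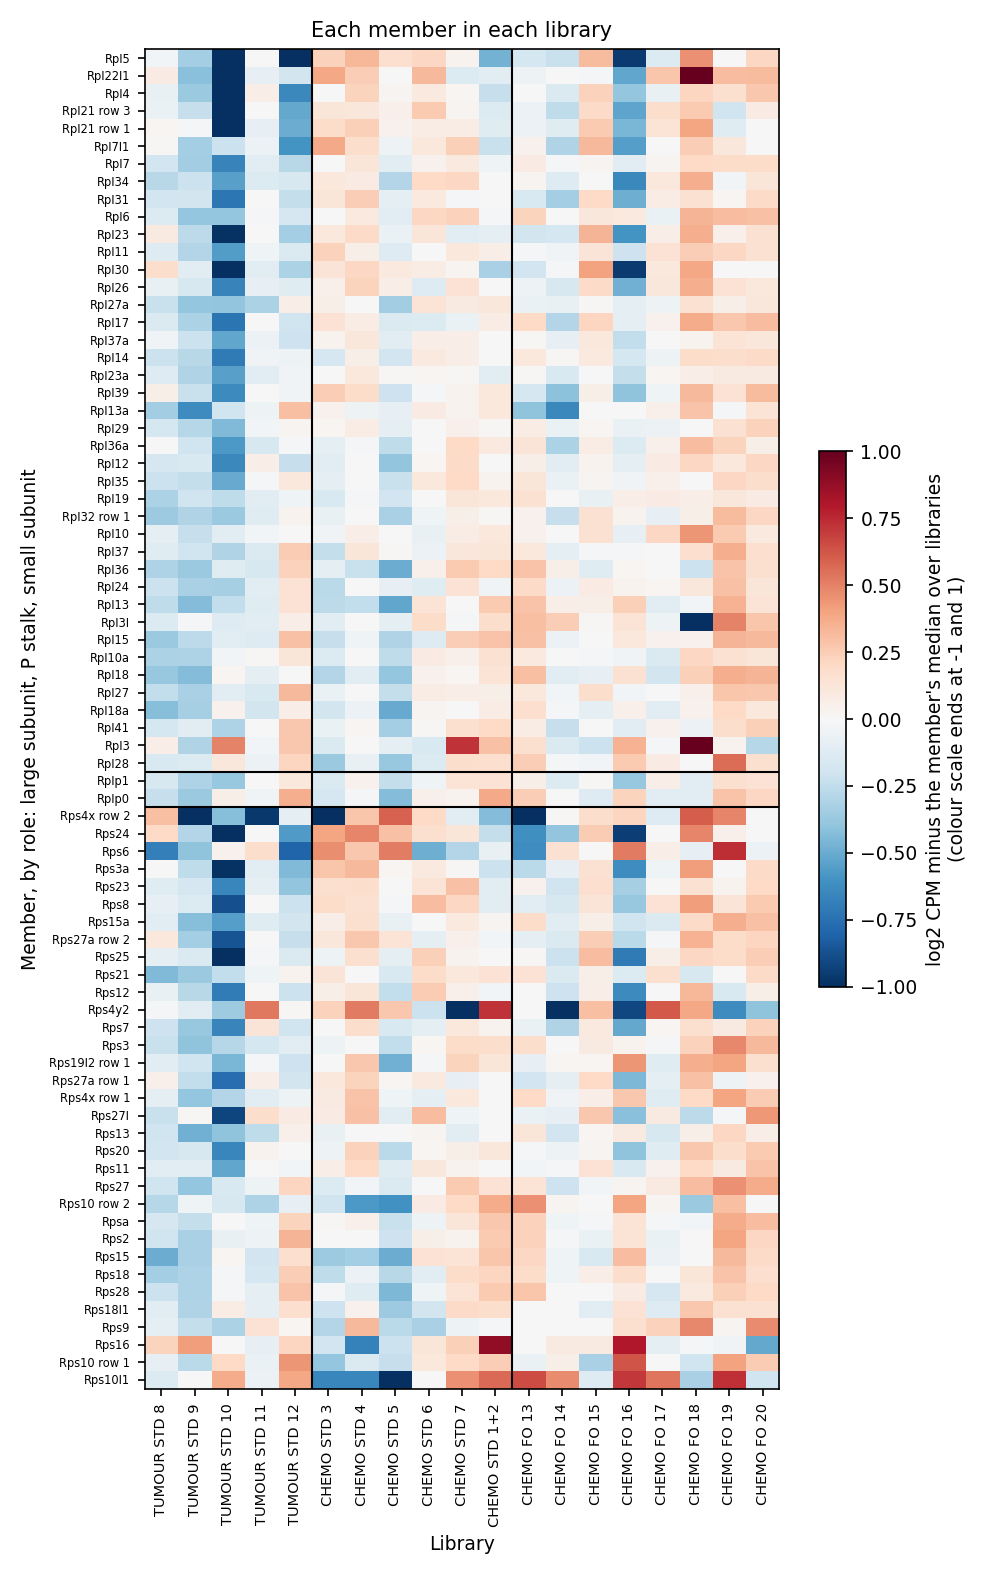
Heat map of 76 of the 78 tested members (vertical axis, by role and then by log2 fold change of CHEMO STD versus TUMOUR STD) in the 19 samples (horizontal axis, by group). Colour gives log2 CPM minus the member's median over samples, red above and blue below. TUMOUR STD 10 is blue across most members, with 33 of them more than 0.5 below, and CHEMO FO 16 has 13 members more than 0.5 below and 4 more than 0.5 above.

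Of the 12 paralog rows, 8 passed the filter. For the chemotherapy effect only Rpl7l1, a relative of Rpl7, passed (12.5% of those tested, beside 2.67% of all genes). Its log2 fold change was 0.34 (SE 0.16, unadjusted p = 0.0430). It did not pass without TUMOUR STD 9, 10 or 12 or without CHEMO STD 1, 3, 4, 6 or 7 (0.27 to 0.35). In CHEMO FO versus TUMOUR STD, Rpl22l1 (0.56, SE 0.21, unadjusted p = 0.0159) and Rps19l2 row 1 (0.37, SE 0.14, unadjusted p = 0.0160) passed (25%, beside 3.72% of all genes). Rpl22l1, the paralog of Rpl22, was at 28.8, 20.3, 12.9, 25.7 and 24.0 CPM in TUMOUR STD and from 18.9 to 57.3 CPM in CHEMO FO (median 30.2), so the groups overlap, and the difference no longer passed without TUMOUR STD 10 (0.40, unadjusted p = 0.0679). Rps19l2 row 1 likewise did not pass without that library (0.30, unadjusted p = 0.0548). No paralog passed in CHEMO FO versus CHEMO STD. Rps27l, a p53 target related to Rps27, differed by 0.23 (SE 0.18) for the chemotherapy effect, by -0.08 (SE 0.16) for the diet effect and by 0.15 (SE 0.17) for CHEMO FO versus TUMOUR STD. Rps18l1, Rps10l1 and Rps4y2 passed in no comparison.

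Rpl3 and its muscle paralog Rpl3l did not pass the test in any comparison, but 1 library stood apart from all others. Rpl3l was at 293, 317, 295, 300.3 and 337 CPM in TUMOUR STD, from 298 to 366 CPM in CHEMO STD, and from 311 to 456 CPM in CHEMO FO apart from CHEMO FO 18, where it was at 141 CPM. Rpl3 was at 187 CPM in that library and from 73.3 to 114 CPM in the other CHEMO FO libraries. The log2 ratio of Rpl3 to Rpl3l counts was 0.41 in CHEMO FO 18 and between -2.41 and -1.10 in the 18 other samples. Such a ratio compares counts that are not corrected for transcript length, so it serves to compare libraries and not the 2 genes. In a two-sided exact permutation test, chosen after the values were seen, the mean log2 ratio was -1.68 ± 0.32 (SD, n = 5) in TUMOUR STD, -1.76 ± 0.36 (n = 6) in CHEMO STD and -1.75 ± 0.91 (n = 8) in CHEMO FO, with exact p = 0.671 for CHEMO STD against TUMOUR STD, exact p = 0.990 for CHEMO FO against CHEMO STD and exact p = 0.927 for CHEMO FO against TUMOUR STD (each 0.990 after adjustment over the 3 pairs). Without CHEMO FO 18, the CHEMO FO mean was 0.38 lower than TUMOUR STD (exact permutation p = 0.0568) and 0.30 lower than CHEMO STD (exact permutation p = 0.110).

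**Figure D4:**
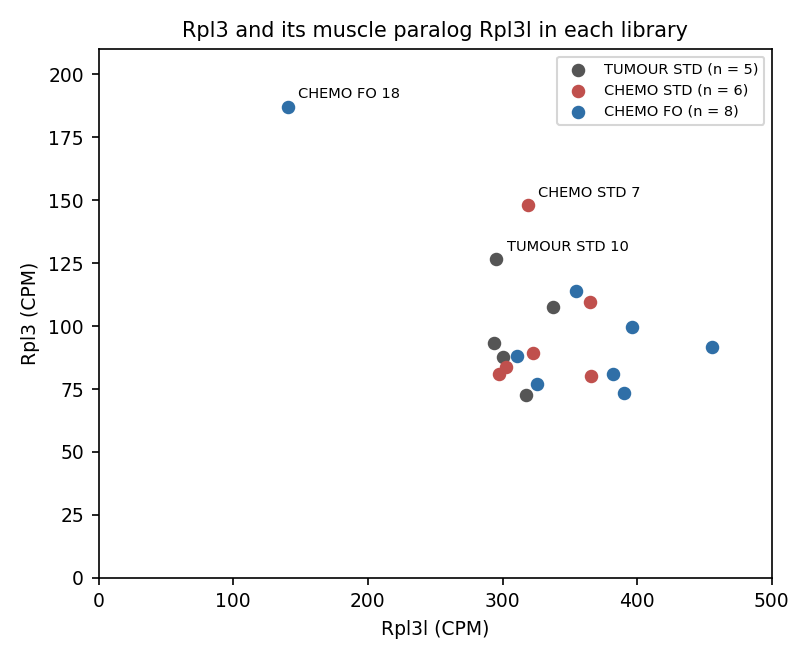
Rpl3 (vertical axis) against Rpl3l (horizontal axis), both in CPM on TMM-scaled library sizes, in the 19 samples coloured by group. CHEMO FO 18 stands alone at 187 CPM of Rpl3 and 141 CPM of Rpl3l.

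CHEMO FO 18 differed from its group in related genes as well. The summed level of the ribosome biogenesis list, factors that make and assemble pre-rRNA and pre-ribosomes, was 2132 CPM there and between 1040.0 and 1209 CPM in the other 18 samples. Myc, the transcription factor known to drive ribosome biogenesis genes, was at 28.4 CPM against 1.99 to 9.43 CPM elsewhere, and Cdkn1a (p21), a cell cycle inhibitor and p53 target, at 183 CPM against 6.99 to 80.7 CPM. Mybbp1a, a nucleolar protein, was at 241 CPM and Polr1a, the catalytic subunit of RNA polymerase I, at 72.7 CPM, both above every other sample. Mitochondrial ribosomal protein genes went the other way in this library, with 13 of 71 above their own median over samples and a median deviation of -0.36 on the log2 scale, while 57 of 78 cytosolic members were above theirs.

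Other gene lists of the ribosome pathway were counted in the same way for the chemotherapy effect, and differences between lists were not tested. The other TOP mRNAs encode elongation and initiation factors among other proteins, and their start windows were not examined as a list. Of these, 8 of 18 were higher, and the median was -0.02 on the log2 scale. The only one to pass was lower (5.56% of the list, beside 449 of all 11716 genes). This was Naca, a chaperone of nascent chains that also has a muscle form (-0.69, SE 0.21, unadjusted p = 0.00289). Naca was at 156, 446, 245, 181 and 194 CPM in TUMOUR STD 8 to 12, and without TUMOUR STD 9 the difference was -0.35 (unadjusted p = 0.0341). Among ribosome biogenesis genes 17 of 36 were higher, with a median of -0.05 and none passing in either direction. Of the mitochondrial ribosomal proteins 60 of 71 were higher, with a median of 0.16 and 5 passing (7.04%, beside 2.67% of all genes), all higher, Mrps17, Mrpl27, Mrps23 and Mrps26 among them. Mrpl27 and Mrps23 did not pass without TUMOUR STD 9 or 10, Mrps23 also not without TUMOUR STD 12 or CHEMO STD 4 or 6, and Mrps26 not without CHEMO STD 6.

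In the diet effect the median log2 fold change was 0.22 for the ribosome biogenesis genes, 30 of 36 of which were higher, and 7 passed (19.4%, beside 2.45% of all genes), all higher. Mybbp1a differed by 0.46 (SE 0.16, unadjusted p = 0.0101), Polr1a by 0.36 (SE 0.13) and Nop56, a box C/D snoRNP protein, by 0.27 (SE 0.11, unadjusted p = 0.0193). Without CHEMO FO 18 the median was 0.09, with 6 genes higher (16.7%, beside 2.72% of all genes) and 1 lower past the threshold. The other TOP mRNAs had a median of 0.14. Only Btf3, a partner of Naca, passed, and narrowly (0.23, SE 0.11), which is 5.56% of the list beside 2.45% of all genes. In 10 of the fits that omit a library it did not pass. The mitochondrial ribosomal proteins had a median of -0.03. Only Mrps26 passed, as lower (-0.37, SE 0.13), which is 1.41% of the list, beside 241 of all 11716 genes. Among 22 genes of translation control, 3 passed as higher (13.6%, beside 2.45% of all genes). Cdkn1a (1.57, SE 0.57) and Eif4g1, the scaffold of the cap-binding complex (0.27, SE 0.09), were among them. The Cdkn1a call was lost without CHEMO FO 18 (0.74, unadjusted p = 0.0965). No gene of these lists passed an adjusted p of 0.05 in edgeR.

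In CHEMO FO versus TUMOUR STD, 15 of the 22 translation control genes were higher, with a median of 0.05 on the log2 scale. In edgeR 3 of them passed, all higher (13.6%, beside 3.72% of all genes). Rheb, the GTPase that activates mTORC1, was higher by 0.38 (SE 0.10, unadjusted p = 0.000771) and Myc by 1.31 (SE 0.44, unadjusted p = 0.00712). Cdkn1a was higher by 1.37 (unadjusted p = 0.0316), and did not pass without TUMOUR STD 8, 9 or 11 or CHEMO FO 15 or 18 (0.56 to 1.28). Myc was at 0.69 without CHEMO FO 18 (unadjusted p = 0.0340). In CHEMO STD versus TUMOUR STD, 10 of the 22 were higher and 12 lower, with a median of -0.04. Of these, 1 passed as higher (4.55%, beside 2.67% of all genes) and 2 as lower, beside 449 of all 11716 genes. The gene that passed as higher was Rheb (0.24, SE 0.10, unadjusted p = 0.0267). Tsc2, an inhibitor of Rheb, was among those lower (-0.45, SE 0.19, unadjusted p = 0.0255). Rheb did not pass without TUMOUR STD 9 or CHEMO STD 3 (0.20 and 0.19), nor Tsc2 without TUMOUR STD 10 or 12 or CHEMO STD 3 or 4 (-0.41 to -0.28).

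**Figure D5:**
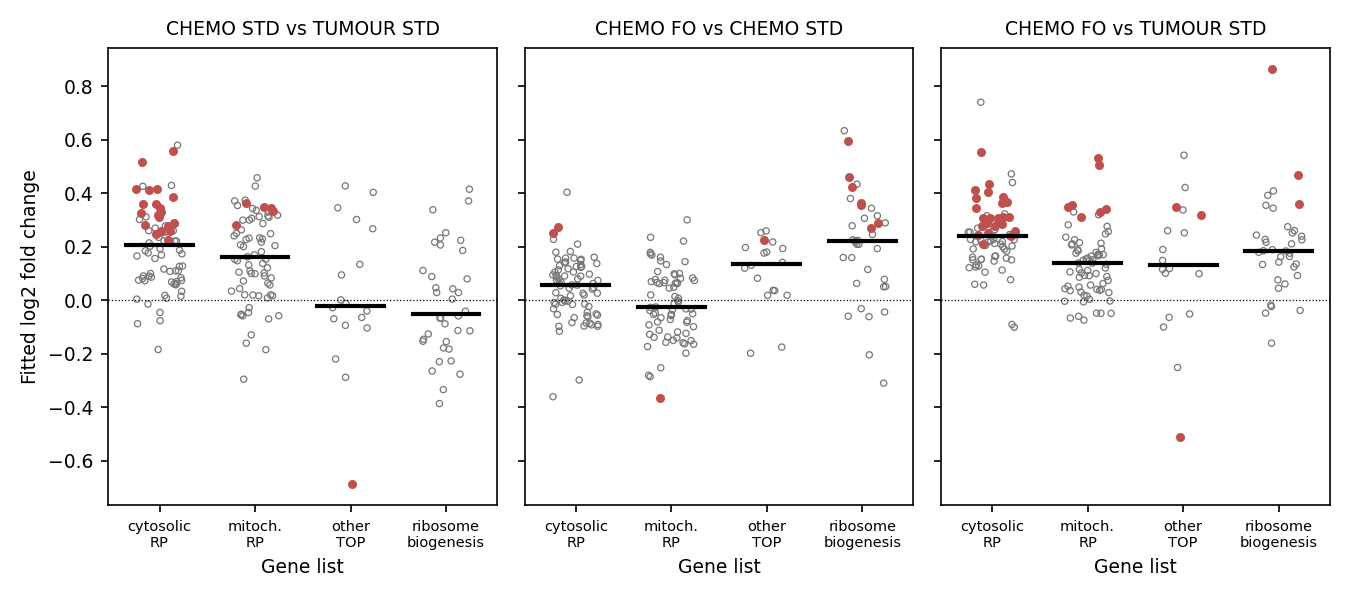
Fitted log2 fold changes of the cytosolic ribosomal protein (RP) genes, the mitochondrial RP genes, other TOP mRNAs and ribosome biogenesis genes (horizontal axis) in the comparisons named above each panel. Each point is a gene, filled red where the unadjusted p is below 0.05, and the bar is the median of the list. The cytosolic RP medians are 0.21, 0.06 and 0.24 from left to right.

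The members were also split by the pyrimidine run in the start window. This used the 54 tested members with a matched promoter whose symbol is not in more than 1 row. Rpl21, Rps10 and Rps4x were thus left out, although they have a matched promoter. In CHEMO STD versus TUMOUR STD the 40 members with the run had a median log2 fold change of 0.19 and the 14 without it 0.22. In CHEMO FO versus CHEMO STD the medians were 0.06 and 0.02, and in CHEMO FO versus TUMOUR STD 0.24 and 0.22. No test was made of this split.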

How the data were processed

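Stranded, rRNA-depleted total RNA libraries of gastrocnemius muscle were sequenced as read pairs. According to the submitters' notes and the study's methods, the authors called bases with CASAVA 1.9, trimmed with Trim Galore 0.4.1, checked quality with FastQC 0.11.4, aligned to Rnor 6 with TopHat2 2.0.10 and Bowtie2, and worked from the alignments in Partek Flow, annotated by Ensembl. The authors deposited unnormalised counts per gene. How reads were counted: not given in the sources used here. Rows without a gene name (388, 0.102% to 0.272% of a library's counts) were left out, and 2 cells were deposited rounded in scientific notation.

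CHEMO STD 1 and 2 were summed, since their chi-square per gene over genes with at least 500 counts was 2.23, against at least 13.7 in other pairs within a group, which is closer than any other pair but above counting noise. The 19 samples were fitted together in R 4.3.3 with edgeR 4.0.16 (default filter with minimum count 10 and total 15, TMM, quasi-likelihood test), with Benjamini-Hochberg adjustment over all 11716 genes tested. SEs are the log2 fold change divided by the root of the F statistic. Thresholds were an unadjusted p of 0.05, alone or with 1.5-fold, and an adjusted p of 0.05. The labels do not say how samples relate to animals beyond separate samples, so p values measure the spread between these samples. For the Rpl3 to Rpl3l ratio, 0.5 CPM was added. Alternatives were DESeq2 1.42.0 (the test of the study's methods), limma voom 3.58.1 with quality weights, other scalings and filters, and libraries left out. The code was tested on simulated data. Python 3.11.15 with matplotlib 3.10.9 drew the figures.

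The members, lists and tests were chosen with earlier results of these data known. Named genes were, by rule, the paralogs and their parents, 12 members of known role, per comparison the 5 members with the smallest p in each direction, and per other list the 2 genes with the smallest p, among those with an unadjusted p below 0.05. Lists of translation control genes and of cell type markers were counted in the same way. Levels per transcript length were not used here, so levels are not compared between genes. The heat map leaves out 2 tested members, whose values are not reported here, while counts and medians over the members include them.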

Additional observations from a re-analysis of the deposited data

Results flagged for a closer look

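Within groups of 4 to 10 samples, 111 sets of values were examined for a single sample far from the others by Dixon's criterion. Chance alone marks about 1 in 20 under it, and 6 were marked, which is close to that share. Of these, 5 belong to CHEMO FO 18, but they are not independent, since the ratio of Rpl3 to Rpl3l is computed from the values of both genes. Its Rpl3l was at 140.6 CPM (other CHEMO FO samples 311 to 456 CPM), its Rpl3 at 187 CPM (others 73.3 to 114 CPM) and its log2 ratio of Rpl3 to Rpl3l at 0.41 (others -2.41 to -1.63). Its Rpl22l1 was at 57.3 CPM (others 18.9 to 34.1 CPM) and its summed ribosome biogenesis level at 2132 CPM (others 1083 to 1209 CPM). The same library had the lowest fast muscle marker sum, 128385 CPM. The other value was Rpl28 in CHEMO FO 19, at 164 CPM (others 108 to 133 CPM).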

How the results depend on the processing

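Between the settings tried, the median log2 fold change of the members kept its sign, and ranged over the libraries left out in turn from 0.13 to 0.25 in CHEMO STD versus TUMOUR STD, from 0.02 to 0.08 in CHEMO FO versus CHEMO STD and from 0.18 to 0.29 in CHEMO FO versus TUMOUR STD. The number past an unadjusted p of 0.05 ranged over the same omissions from 3 to 26, from 0 to 2 and from 11 to 40, and the number past p and 1.5-fold from 0 to 2, from 0 to 0 and from 0 to 2. In CHEMO STD versus TUMOUR STD (20 members past p, 0 past both), library totals in place of TMM gave 12 past p. No filter gave 13 past p (beside 2.92% of all genes) and DESeq2 25 (beside 3.16%). Leaving out TUMOUR STD 10 and CHEMO FO 18, chosen after seeing the data, gave 7. No filter gave 1 past both thresholds, and CHEMO STD 1 and 2 left out gave 2. In CHEMO FO versus CHEMO STD (2 past p, 0 past both), library totals gave 0 past p, no filter 1, limma voom 11 (10 higher and 1 lower), CHEMO STD 1 and 2 kept separate 1 or left out 5, and a fit of only those groups 0. Limma voom and the omission of CHEMO STD 1 and 2 each gave 1 past both. In CHEMO FO versus TUMOUR STD (24 past p), DESeq2 gave 35 (beside 4.46% of all genes), and leaving out TUMOUR STD 10 and CHEMO FO 18 gave 15. The cause of these changes was not tested. No paired analysis was possible because the groups share no replicate numbers. The smallest library held 3020821 counts, which limits the rows with few counts most. None of the 31 alternatives turned the direction of a member called in the comparison concerned (20, 2 and 24 members).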
